A study of Mus musculus with 18 samples.

Results

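Of the 25731 gene symbols in the count table, 44 belong to the matrix metalloproteases (MMPs), the ADAMTS proteases and their tissue inhibitors (TIMPs). They were taken by symbol alone: 21 Mmp genes, 19 Adamts genes and the 4 Timp genes. RNA was sequenced from the hearts of 18 wild-type C57BL/6 mice, given in the labels as adult males, 6 per group and 1 library per animal. All hearts were collected at day 7. The groups were sham surgery (SHAM), ischemia-reperfusion (IR), in which coronary flow is stopped and then restored, and ischemia-reperfusion with decursin, a pyranocoumarin from Angelica roots (IR+Decursin). No group received decursin without ischemia-reperfusion, so the effect of decursin on an uninjured heart is not addressed. The decursin dose, its route and the time of ischemia were not given in the sources used here.

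MMPs are zinc enzymes that cut collagens, gelatin, proteoglycans and many cell surface proteins. Most are made as inactive precursors, some are secreted and others stay anchored in the cell membrane. ADAMTS proteases are secreted zinc enzymes with thrombospondin repeats that bind matrix. Different members trim procollagens, cut the large proteoglycans versican and aggrecan, or act on fibrillin-rich microfibrils. TIMPs block the active site of MMPs, and Timp3 also blocks several ADAMTS and ADAM enzymes. In an infarcted heart these proteins take part in clearing the damaged matrix and in building the scar. The values below are RNA levels and say nothing of enzyme activity, which also depends on activation and inhibition.

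Libraries held 27.53 to 34.97 M counts, and 3 of them went against the labels. IR 3 (14232 counts), IR 4 (14072 counts) and IR+Decursin 2 (14219 counts) expressed Xist, the RNA of the silenced female X, which had at most 8 counts elsewhere. The same 3 had 0 counts of the Y-linked Ddx3y. In IR+Decursin 6, a single gene model, Gm26917, took 7.54% of the counts, for at most 0.915% in any other library. Each group is also its own labelled batch, and the effects of batch and treatment cannot be told apart. The tissue label was checked with 9 cardiomyocyte markers (Myh6, Tnnt2 and others), whose mean log2(CPM + 1) was 12.27 to 12.44 in SHAM, 11.58 to 11.95 in IR and 11.73 to 12.37 in IR+Decursin. All 9 fell in IR against SHAM. In bulk RNA, fewer cells of a type and less RNA per cell cannot be told apart.

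At day 7 most of the MMP genes that could be tested were higher in IR hearts than in SHAM hearts, while the TIMPs split. Of the 44 genes, 37 had enough counts to test. In IR against SHAM 17 of the 37 rose, where 25.3% of all 15088 genes tested rose, and 3 fell, where 21.7% of all genes fell (edgeR quasi-likelihood test, Benjamini-Hochberg adjusted p under 0.05). By family, 11 of 17 Mmp genes rose and 1 fell, 4 of 16 Adamts genes rose and 0 fell, and 2 of 4 Timp genes rose and 2 fell. The Adamts rises are thus about the share of all genes that rose, and the families were not tested against each other. The median log2 fold change was 0.65 over the 37 genes and -0.00 over all genes tested. For 14 genes every IR library lay above every SHAM library, which holds for 15.4% of all genes, and for 0 genes did every IR library lie below, which holds for 11.6% of all genes.

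The test needed 0.306 counts per 1 M library counts (CPM) in 6 libraries. Of the 37 genes, 25 reached that in all 6 SHAM libraries. Of the 12 that did not, 7 rose in IR (Mmp8, Mmp9, Mmp12, Mmp25, Mmp27, Adamts4 and Adamts14). These 7 entered the test mainly through the injured hearts, so the counts above cannot be read as a share of all 44 genes. The split between risen and fallen genes also depended on scaling. With library totals in place of TMM factors the median of all genes moved to 0.31, and 26 members rose and 1 fell. Of all 15088 genes, 7012 rose and 1056 fell in that setting. No called rise or fall changed sign under any setting tried, but the falls of Timp3 and Mmp15 were then no longer called. Without the 3 libraries that went against their labels 38 members were tested, of which 15 rose and 1 fell. The rises of Mmp8, Mmp11 and Mmp25 were not called there, and the 15 include a member not tested in the main fit. The share of all genes in that setting is not given here.

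**Figure D1:**
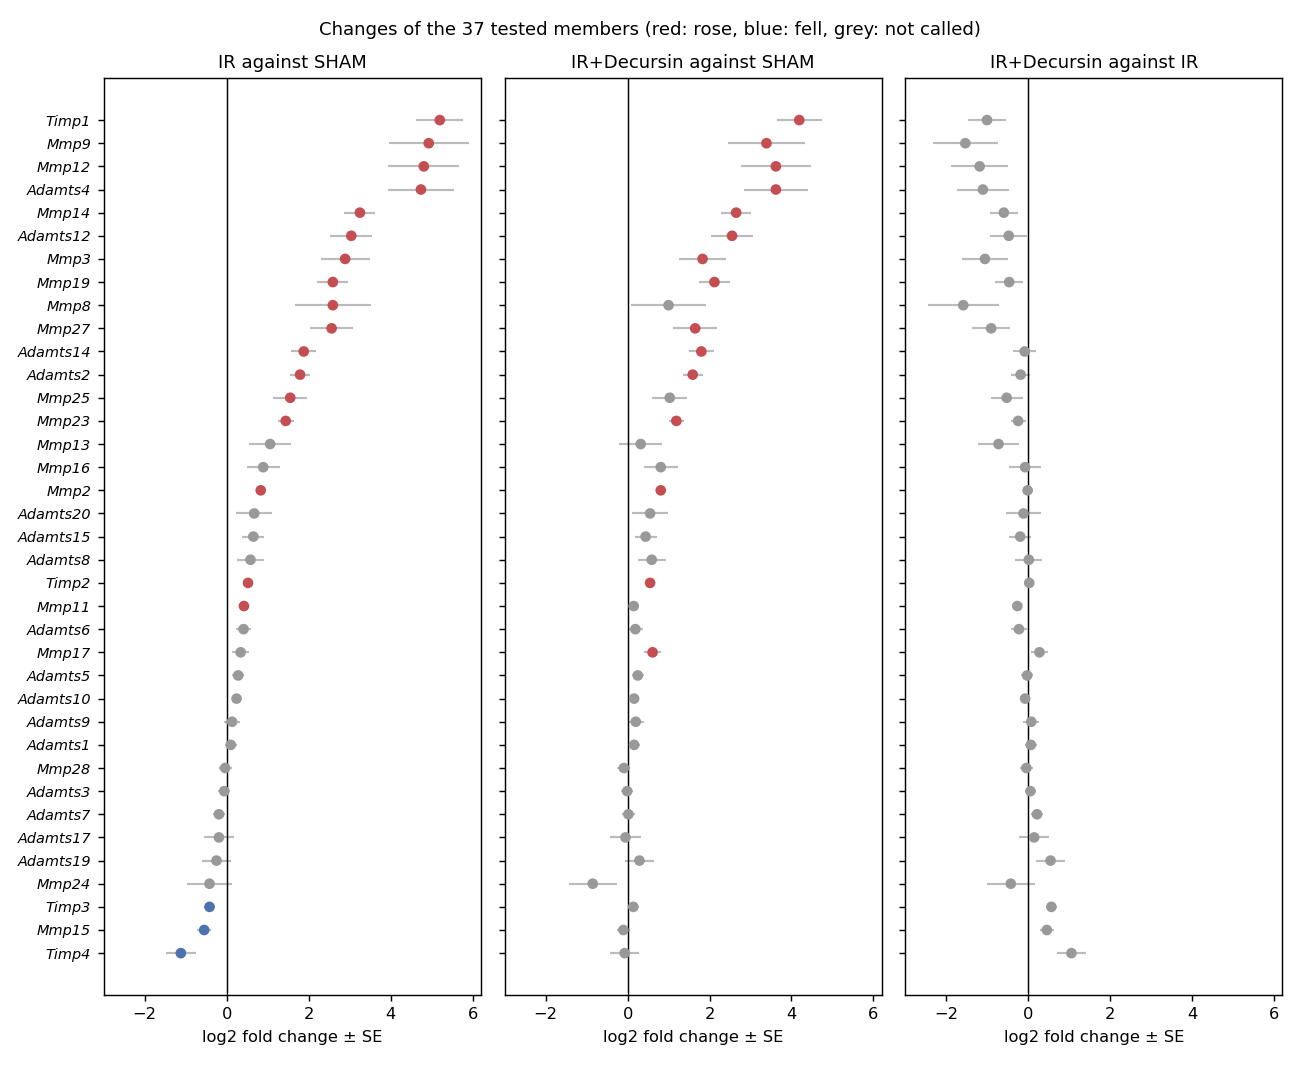
Log2 fold change (horizontal axis, bars are ± SE) of the 37 tested genes in the 3 comparisons, from edgeR, ordered by the change in IR against SHAM; red points rose, blue points fell and grey points were not called. Timp1 stands highest at 5.20 in IR against SHAM, and no point is coloured in IR+Decursin against IR.

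The inhibitors moved in opposite directions. Timp1, a secreted inhibitor that is also induced in inflammation, had 2.31 to 5.29 RPKM in SHAM (median 3.37), 94.1 to 187 in IR (median 114) and 5.51 to 121 in IR+Decursin (median 67.0). RPKM here is the TMM-scaled level per kilobase of gene, so that genes can be set beside each other. Every IR library lay far above every SHAM library, and so did every IR+Decursin library, although IR+Decursin 6 lay only just above the highest SHAM value. The rise in IR was 5.20 ± 0.57 in log2 units (SE, 36.7-fold, edgeR adjusted p = 7.13e-06).

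Timp2, which inhibits MMPs and also helps Mmp14 to activate Mmp2, changed little between libraries of a group. It had 30.9 to 38.2 RPKM in SHAM (median 34.7), 45.7 to 53.8 in IR (median 50.8) and 45.4 to 54.7 in IR+Decursin (median 51.7). Both injured groups lay wholly above SHAM and covered the same range as each other. The rise in IR was 0.52 ± 0.07 log2 units (1.44-fold, edgeR adjusted p = 9.11e-06).

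Timp3, which is held in the matrix, was the most abundant TIMP RNA in SHAM. It had 75.8 to 96.4 RPKM in SHAM (median 80.8), 48.5 to 80.1 in IR (median 58.7) and 64.0 to 113 in IR+Decursin (median 90.0). In IR, 5 of 6 libraries lay below all SHAM libraries, and IR 6 lay among them. The fall was -0.42 ± 0.13 log2 units (edgeR adjusted p = 0.0109). It was not called with library totals (-0.12, adjusted p = 0.379) or without the 3 libraries that went against their labels (-0.33, adjusted p = 0.079).

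Timp4, whose expression is known to be high in heart muscle, had 10.2 to 20.4 RPKM in SHAM (median 15.9), 4.01 to 11.2 in IR (median 7.30) and 6.88 to 30.2 in IR+Decursin (median 12.4). Again 5 of 6 IR libraries lay below all SHAM libraries and IR 6 was the exception. The fall was -1.12 ± 0.36 log2 units (0.459-fold, edgeR adjusted p = 0.017), and it was not called without the 3 libraries that went against their labels (-0.98, adjusted p = 0.0616). The cardiomyocyte markers fell in the same comparison, and their part in the falls of Timp3 and Timp4 was not tested. Exons of Timp3 and Timp4 overlap those of Syn3 and Syn2 on the opposite strand in the GENCODE M21 annotation, and the strand setting of the counting was not given in the sources used here. If it ignored strand, reads in the overlapping part cannot be told apart from those of the synapsin genes, and the size of that part was not measured.

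**Figure D2:**
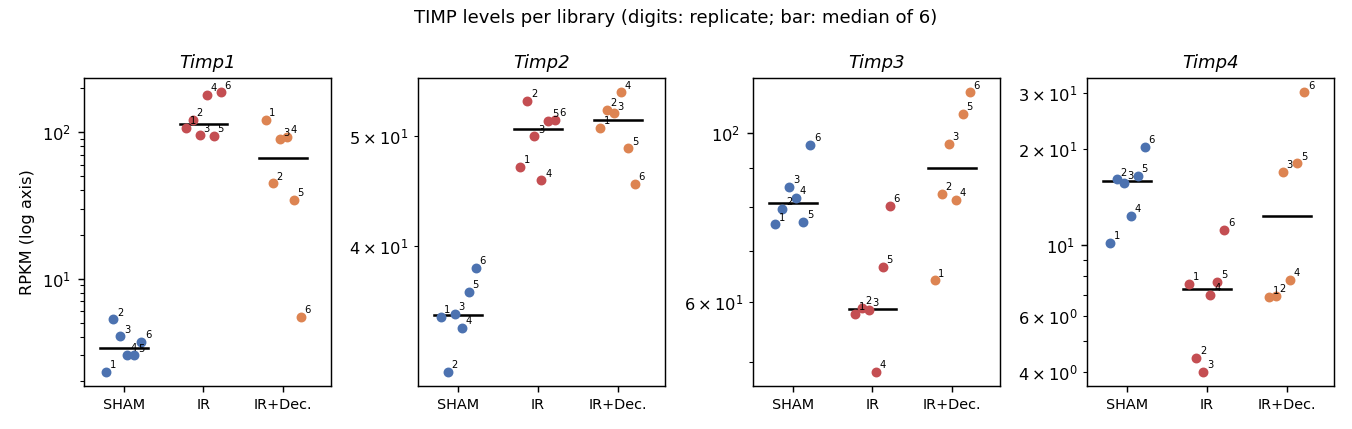
RPKM (log axes that differ between panels) of the 4 Timp genes in each library; points are animals, digits their replicate numbers and bars the median of 6. The IR points of Timp1 and Timp2 sit above all SHAM points, while those of Timp3 and Timp4 sit below except for IR 6.

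The make-up of the TIMP RNA pool differed accordingly. Timp1 made up 1.88 to 4.02% of the summed TIMP RPKM in SHAM (median 2.32%), 42.8 to 64.0% in IR (median 49.8%) and 2.84 to 49.9% in IR+Decursin (median 29.4%). Timp3 made up 57.8 to 62.5% in SHAM (median 60.8%), 17.3 to 30.3% in IR (median 25.5%) and 26.3 to 58.2% in IR+Decursin (median 41.1%). Neither share overlapped between SHAM and IR, and IR+Decursin ran from SHAM-like values in IR+Decursin 6 to IR-like values in IR+Decursin 1. The summed TIMP level itself had medians of 132 RPKM for SHAM, 230 for IR and 222 for IR+Decursin. The summed MMP level had medians of 50.4, 145 and 109 RPKM in the same order, so the MMP sum over the TIMP sum had medians of 0.383, 0.583 and 0.499. That ratio overlapped between groups, at 0.329 to 0.487 in SHAM, 0.410 to 0.724 in IR and 0.332 to 0.616 in IR+Decursin. These sums and shares are descriptions, with no test.

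**Figure D3:**
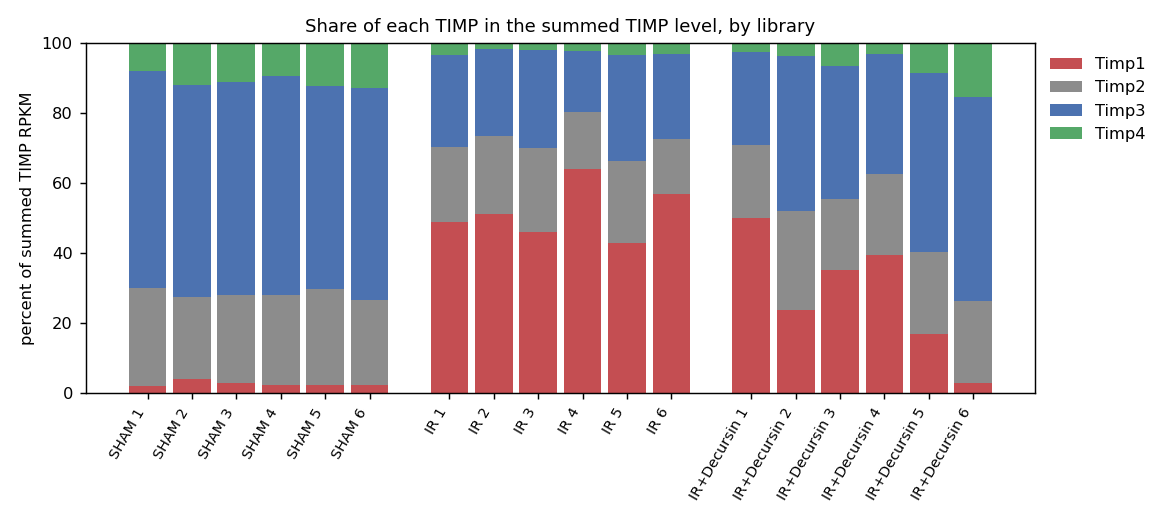
Stacked bars of the percent of summed TIMP RPKM held by each Timp gene (vertical axis, 0 to 100%) in each of the 18 libraries. The Timp1 part is at most 4.02% in SHAM and at least 42.8% in IR, and in IR+Decursin it runs from 2.84% to 49.9%.

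Among secreted MMPs, both gelatinases rose in IR. Mmp2, a gelatinase made largely by fibroblasts, had 16.9 to 24.1 RPKM in SHAM (median 19.4), 29.8 to 41.1 in IR (median 34.6) and 27.5 to 43.1 in IR+Decursin (median 35.5). Neither injured group overlapped SHAM, and the rise in IR was 0.83 ± 0.12 log2 units (1.78-fold, edgeR adjusted p = 1.7e-05). Mmp9, the gelatinase stored in neutrophil granules and also made by macrophages, had 0.0905 to 0.918 RPKM in SHAM (median 0.192), 1.06 to 22 in IR (median 10.6) and 0.389 to 8.32 in IR+Decursin (median 2.63). The IR libraries differed widely but all lay above SHAM, whose highest values were those of SHAM 5 and SHAM 2. The rise was 4.93 ± 0.98 log2 units (30.4-fold, edgeR adjusted p = 0.00071), and 5.52 without SHAM 5.

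Of the collagenases, which cut fibrillar collagen, only Mmp8 was called among the pair tested. Mmp8, the collagenase of neutrophil granules, had 0.0141 to 1.25 RPKM in SHAM (median 0.0573), 0.782 to 3.66 in IR (median 1.2) and 0.0634 to 1.88 in IR+Decursin (median 0.468). SHAM 5 lay within the IR range and the other SHAM libraries lay below it. The rise was 2.59 ± 0.93 log2 units (edgeR adjusted p = 0.0302). It rested on single libraries: the adjusted p was 0.055 to 0.0657 without any 1 of SHAM 1, SHAM 3, SHAM 4, SHAM 6, IR 4 or IR 6, and without SHAM 5 the rise was 4.05 (adjusted p = 0.00262). It was not called without the 3 libraries that went against their labels (2.42, adjusted p = 0.0701). Mmp13, the other collagenase tested, had a change of 1.06 ± 0.52 (edgeR adjusted p = 0.106), with medians of 0.333 RPKM for SHAM, 0.566 for IR and 0.258 for IR+Decursin.

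Mmp3 and Mmp12 also rose. Mmp3 (stromelysin 1), which cuts proteoglycans and can activate other MMP precursors, had 2.07 to 8.59 RPKM in SHAM (median 3.07), 7.00 to 63.0 in IR (median 35.1) and 3.22 to 27.1 in IR+Decursin (median 15.4). All IR libraries except IR 3 lay above SHAM, where SHAM 2 and SHAM 5 again were the highest. The rise was 2.89 ± 0.60 log2 units (7.43-fold, edgeR adjusted p = 0.00092). Mmp12, the elastase of macrophages, had 0.0458 to 0.236 RPKM in SHAM (median 0.151), 0.839 to 9.90 in IR (median 3.18) and 0.299 to 5.24 in IR+Decursin (median 1.15). Both injured groups lay above SHAM, and the rise in IR was 4.81 ± 0.87 log2 units (28.0-fold, edgeR adjusted p = 0.00031). Within IR these enzymes did not rank the animals alike: Mmp3 and Mmp9 were lowest in IR 3 and IR 6, whereas Mmp12 was highest in IR 6, followed by IR 3.

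Leukocyte markers were higher in IR as well. The mean log2(CPM + 1) of 13 neutrophil markers was 0.19 to 1.54 in SHAM, 1.06 to 2.59 in IR and 0.34 to 1.98 in IR+Decursin. Of the 7 neutrophil markers tested, 4 rose in IR, and Elane had 0 counts in SHAM and in IR+Decursin. The neutrophil level was 1.54 in SHAM 5 and 1.27 in SHAM 2, the libraries with the most Mmp3, Mmp8 and Mmp9 RNA of their group, for at most 0.51 in the other SHAM libraries. Within IR it was lowest in IR 3, at 1.06, which also had the lowest Mmp9 and Mmp3. The order otherwise differed: IR 6, with the next lowest Mmp9 and Mmp3, had 2.04, and IR 5, with the highest Mmp9, had 1.88. Of 10 macrophage markers 9 rose in IR, and their level was 4.93 to 5.43 in SHAM, 6.50 to 7.25 in IR and 5.47 to 6.87 in IR+Decursin. The part of these cells in the MMP changes was not tested.

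Mmp3, Mmp8, Mmp10, Mmp12, Mmp13 and Mmp27 belong to a run of Mmp genes on mouse chromosome 9, in which all 10 protein-coding genes from the first to the last are Mmp genes. The 100 bases before the start sites of those 6 genes are set side by side (RefSeq, build GRCm38.p6, + strand, 5′ to 3′). Capitals mark the letters TGANTCA, the binding motif of AP-1, a dimer of Fos and Jun proteins. Mmp12 has a pair of RefSeq windows, and the one that holds the motif is shown.
Mmp13 at chr9:7272414-7272513: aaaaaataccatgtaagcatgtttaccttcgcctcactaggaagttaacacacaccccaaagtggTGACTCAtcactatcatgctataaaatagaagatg
Mmp12 at chr9:7347274-7347373: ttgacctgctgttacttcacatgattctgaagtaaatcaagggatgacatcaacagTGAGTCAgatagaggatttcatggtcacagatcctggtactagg
Mmp3 at chr9:7445722-7445821: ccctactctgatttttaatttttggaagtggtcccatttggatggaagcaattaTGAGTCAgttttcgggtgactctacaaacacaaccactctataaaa
Mmp10 at chr9:7502242-7502341: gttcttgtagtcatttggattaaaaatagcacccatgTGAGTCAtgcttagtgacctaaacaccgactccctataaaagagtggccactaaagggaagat
Mmp8 at chr9:7558329-7558428: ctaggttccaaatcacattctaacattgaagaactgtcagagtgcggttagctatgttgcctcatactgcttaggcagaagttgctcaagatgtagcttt
Mmp27 at chr9:7571296-7571395: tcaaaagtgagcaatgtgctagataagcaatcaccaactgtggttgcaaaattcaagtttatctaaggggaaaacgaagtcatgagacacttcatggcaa

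The letters begin 35 bases before the start site in Mmp13, 44 in Mmp12, 46 in Mmp3 and 63 in Mmp10. Over the RefSeq windows from 250 bases before to 50 after a start site, searched on both strands, 30 of the 44 genes had a window and 6 of them (20%) held the motif, for 8.97% of all genes with a window. The other holders were Mmp1b (93 bases) and Mmp7 (63 bases), so all 6 lie on chromosome 9. Of the genes with a match Mmp3 and Mmp12 rose, Mmp13 was not called, and Mmp10, Mmp1b and Mmp7 had too few counts to test. Mmp8 and Mmp27 rose without a match. The part of the motif in these changes was not tested. A match is a string of letters and not a site in use.

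Of the MMPs activated inside the cell by furin, other than the membrane-anchored ones given below, Mmp23 and Mmp11 rose and Mmp28 was not called. Mmp23 had 2.34 to 2.96 RPKM in SHAM (median 2.65), 6.36 to 8.41 in IR (median 6.92) and 3.10 to 8.15 in IR+Decursin (median 6.53). Both injured groups lay above SHAM, and the rise in IR was 1.44 ± 0.19 log2 units (2.71-fold, edgeR adjusted p = 1.28e-05). Mmp11 (stromelysin 3) rose by 0.42 ± 0.12 (edgeR adjusted p = 0.00866), from a median of 2.14 to 2.90 RPKM, and was not called without the 3 libraries that went against their labels (0.35, adjusted p = 0.0639). Mmp28 had a change of -0.04 ± 0.16 (edgeR adjusted p = 0.859).

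The membrane-anchored MMPs went both ways. Mmp14 (MT1-MMP), the collagenase of the cell surface and activator of Mmp2, had 2.54 to 4.34 RPKM in SHAM (median 3.0), 22.4 to 40.0 in IR (median 29.4) and 4.42 to 34.7 in IR+Decursin (median 22.1). At these TMM-scaled levels every injured heart lay above SHAM, IR+Decursin 6 only just. The rise in IR was 3.25 ± 0.38 log2 units (9.53-fold, edgeR adjusted p = 8.54e-06). Mmp15 (MT2-MMP), a close relative, had 13.3 to 18.8 RPKM in SHAM (median 16.9), 7.97 to 15.5 in IR (median 11.0) and 10.4 to 20.4 in IR+Decursin (median 14.8). All IR libraries except IR 3 lay below SHAM. The fall was -0.55 ± 0.17 log2 units (0.683-fold, edgeR adjusted p = 0.0136), and it was not called with library totals (-0.24, adjusted p = 0.234).

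In SHAM hearts Mmp15 RNA was thus several times as abundant per kilobase as Mmp14 RNA, and in IR hearts the order was turned around in every library. As a share of summed MMP RPKM, Mmp15 went from a median of 30.0% in SHAM to 6.70% in IR and Mmp14 from 5.79% to 18.6%. Mmp25 (MT6-MMP), described in leukocytes, had 0.00872 to 0.0755 RPKM in SHAM (median 0.0446), 0.0946 to 0.227 in IR (median 0.118) and 0.0252 to 0.137 in IR+Decursin (median 0.112). IR lay above SHAM in every library, and IR+Decursin 5 and 6 lay within the SHAM range. It rose in IR by 1.55 ± 0.42 (edgeR adjusted p = 0.00478). It missed the threshold without the 3 libraries that went against their labels (1.21, adjusted p = 0.0501). Mmp16, Mmp17 and Mmp24 had changes of 0.89 ± 0.40, 0.34 ± 0.21 and -0.42 ± 0.56, with edgeR adjusted p of 0.0762, 0.179 and 0.563.

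The remaining MMPs tested, Mmp19 and Mmp27, both rose. Mmp19, a widely expressed enzyme that cuts basement membrane proteins, had 0.630 to 1.47 RPKM in SHAM (median 0.818), 4.33 to 8.32 in IR (median 5.27) and 0.664 to 6.15 in IR+Decursin (median 4.49). IR did not overlap SHAM, and of the IR+Decursin libraries IR+Decursin 6 alone did. The rise in IR was 2.59 ± 0.38 log2 units (6.02-fold, edgeR adjusted p = 4.46e-05). Mmp27, a little-studied member, had 0.0323 to 0.168 RPKM in SHAM (median 0.111), 0.393 to 1.14 in IR (median 0.593) and 0.0724 to 0.814 in IR+Decursin (median 0.292). IR again did not overlap SHAM (2.56 ± 0.53 log2 units, 5.92-fold, edgeR adjusted p = 0.000514), while IR+Decursin 2, 5 and 6 lay among the SHAM libraries.

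**Figure D4:**
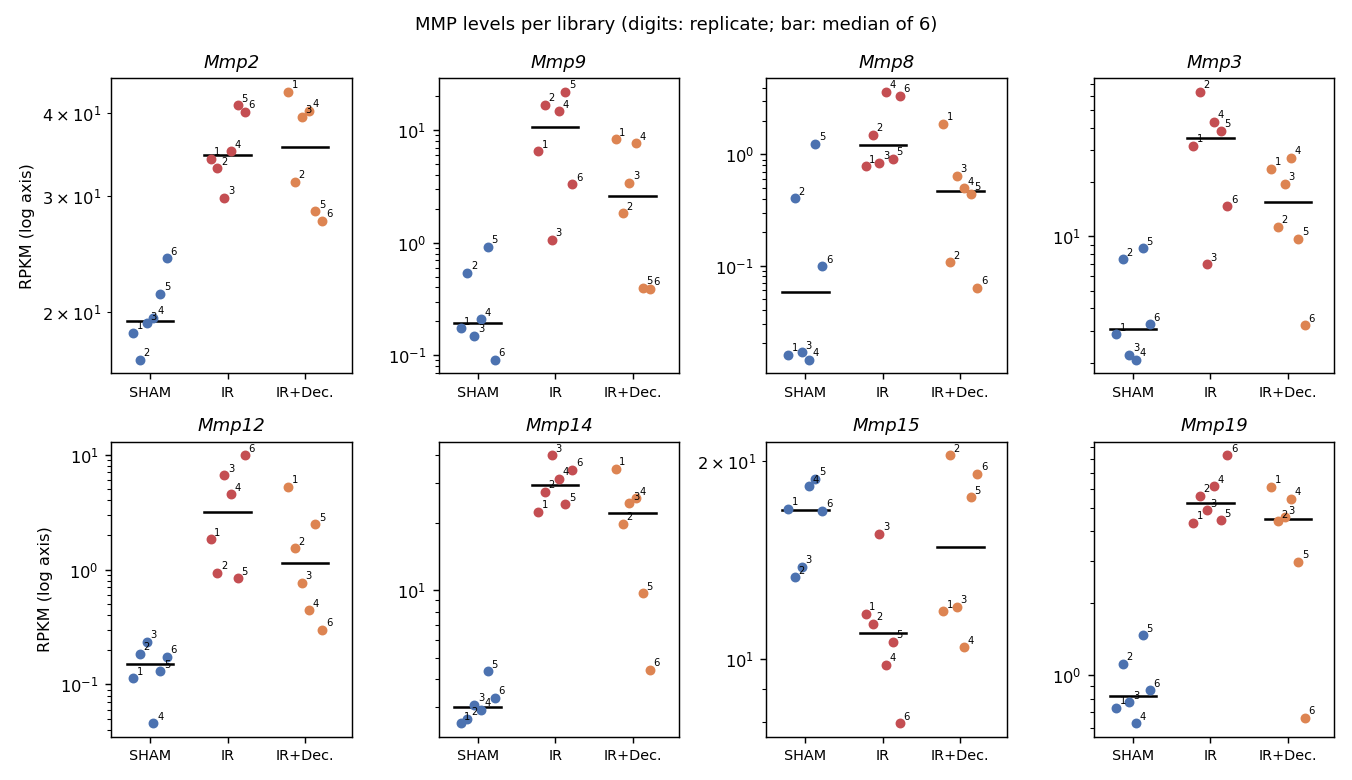
RPKM (log axes that differ between panels) of 8 Mmp genes in each library; points are animals, digits their replicate numbers and bars the median of 6. Mmp14 is at most 4.34 in SHAM and at least 22.4 in IR, Mmp15 moves the other way, and SHAM 2 and SHAM 5 stand at the top of their group for Mmp9, Mmp8 and Mmp3.

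The 4 ADAMTS genes that rose were Adamts2, Adamts14, Adamts12 and Adamts4. Among the procollagen N-proteinases, which trim the amino end of fibrillar procollagens, Adamts2 had 3.0 to 3.89 RPKM in SHAM (median 3.38), 9.72 to 15.6 in IR (median 10.3) and 4.05 to 14.9 in IR+Decursin (median 11.2). At these TMM-scaled levels both injured groups lay above SHAM, and the rise in IR was 1.79 ± 0.24 log2 units (3.45-fold, edgeR adjusted p = 1.73e-05). Adamts14 had 0.0537 to 0.299 RPKM in SHAM (median 0.184), 0.635 to 0.831 in IR (median 0.708) and 0.300 to 0.899 in IR+Decursin (median 0.776), again with no overlap with SHAM. It rose by 1.88 ± 0.30 (3.69-fold, edgeR adjusted p = 4.97e-05). Adamts3, the third of this subfamily, had a change of -0.06 ± 0.15 (edgeR adjusted p = 0.768). Its medians were 0.693 RPKM in SHAM and 0.636 in IR.

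Adamts12, which cuts cartilage oligomeric matrix protein, had 0.134 to 0.372 RPKM in SHAM (median 0.194), 1.22 to 2.71 in IR (median 1.58) and 0.228 to 2.97 in IR+Decursin (median 1.21). IR lay above SHAM in every library, whereas IR+Decursin 6 lay within the SHAM range. The rise in IR was 3.04 ± 0.51 log2 units (8.2-fold, edgeR adjusted p = 0.000165). Its relative Adamts7, which cuts the same substrate, had a change of -0.19 ± 0.15 (edgeR adjusted p = 0.303).

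Among the 7 ADAMTS enzymes that cut versican and aggrecan, Adamts4 alone was called in the main fit. It had 0.00545 to 0.222 RPKM in SHAM (median 0.0537), 1.31 to 2.97 in IR (median 2.23) and 0.0431 to 2.37 in IR+Decursin (median 0.950). IR lay above SHAM in every library, and IR+Decursin 5 and 6 lay within the SHAM range. The rise in IR was 4.74 ± 0.80 log2 units (26.7-fold, edgeR adjusted p = 0.000171), and 5.46 without SHAM 5. The others of the group were more abundant in SHAM or barely expressed: Adamts1, the most abundant ADAMTS RNA of SHAM hearts at a median of 8.32 RPKM, had a change of 0.10 ± 0.14 (edgeR adjusted p = 0.589).

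Adamts5 and Adamts9 had changes of 0.28 ± 0.15 and 0.13 ± 0.20 (edgeR adjusted p = 0.12 and 0.635). Adamts15 had 0.65 ± 0.27 (adjusted p = 0.0614), Adamts8 0.58 ± 0.34 (adjusted p = 0.165) and Adamts20 0.67 ± 0.44 (adjusted p = 0.221), again from edgeR. Adamts15 was called by DESeq2 (0.64, adjusted p = 0.03) and by limma-voom with quality weights (0.70, adjusted p = 0.0434). With library totals Adamts1, Adamts5, Adamts8 and Adamts15 were called higher, in a setting where 7012 of all 15088 genes rose. The difference in change between Adamts4 and these genes was not tested. None of the 4 fibrillin-associated genes was called in IR against SHAM in the main fit. Adamts10, the most abundant of them at a SHAM median of 5.36 RPKM, had a change of 0.24 ± 0.11 (edgeR adjusted p = 0.0796). Adamts6, Adamts17 and Adamts19 had changes of 0.41 ± 0.19, -0.19 ± 0.37 and -0.25 ± 0.36.

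**Figure D5:**
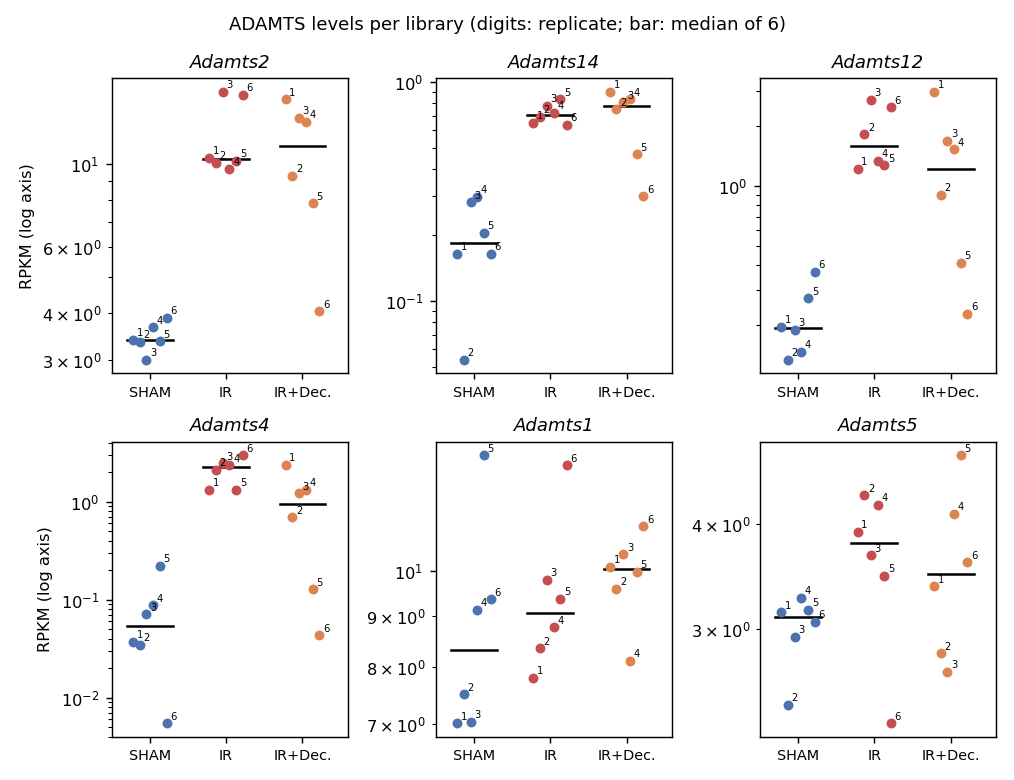
RPKM (log axes that differ between panels) of 6 Adamts genes in each library; points are animals, digits their replicate numbers and bars the median of 6. Adamts2, Adamts14, Adamts12 and Adamts4 are higher in every IR library than in any SHAM library, while Adamts1 and Adamts5 overlap.

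Markers of activated fibroblasts (Postn, Cthrc1, Fap, Acta2, Ltbp2, Meox1, Comp and Cilp) were set beside the risen genes of matrix processing. Of these 8 markers 5 rose and 1 fell in IR against SHAM, and none had 0 counts throughout a group. The marker that fell was Comp, at -1.03 in log2 units, and Acta2 had a change of 0.16. Their mean log2(CPM + 1) was 4.18 to 4.62 in SHAM, 5.21 to 6.60 in IR and 4.28 to 6.39 in IR+Decursin. Markers of resident fibroblasts had 6.58 to 6.86, 6.81 to 7.07 and 6.86 to 7.12 in the same order. The part of a shift in cell types in the changes of Mmp2, Mmp14, Adamts2, Adamts12 and Adamts14 was not tested.

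The 7 genes with too few counts to test were given by their summed counts in SHAM, IR and IR+Decursin. Adamts16, known from kidney and gonad, had 4, 103 and 55 counts, of which 47 were in IR 6. Mmp10 (stromelysin 2) had 0, 29 and 4 counts, of which 21 were in IR 4, so the sum rests largely on 1 animal. Adamts18 had 3, 8 and 3 counts, Mmp1b 0, 4 and 0, and Mmp7 (matrilysin) 0, 2 and 1. Mmp21 had 1, 1 and 0 counts, and Adamts13, the von Willebrand factor protease made mainly in liver, had 0, 1 and 0. At this depth these genes were close to undetected in SHAM, and no change is read from them.

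Sequence shared with other genes limits several of these values. In the GENCODE M21 annotation, 13 of the 44 genes have an exon that overlaps an exon of another gene, in each case on the opposite strand. Beside Timp3 and Timp4 these include Mmp12 with Mmp1b, Mmp11 with Chchd10, Mmp19 with Tmem198b and Adamts7 with Tbc1d2b. Timp1 lies within the body of Syn1 with no shared exon.

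Genes that work with these proteases were counted in 6 lists, read against the same 25.3% and 21.7% of all genes. Of 10 tested genes of the ADAM family, membrane-anchored relatives that are not all proteases, 7 rose and 0 fell in IR. Among the 7 were Adam8, a leukocyte sheddase, by 5.30 ± 0.85, Adam12 by 5.04 ± 0.77 and Adam19 by 1.31 ± 0.19 (edgeR adjusted p = 0.000123, 8.21e-05 and 2.89e-05). All 4 cysteine cathepsins, lysosomal proteases that can also act on matrix, rose, with Ctss at 3.37 ± 0.42, Ctsk at 2.18 ± 0.36 and Ctsb at 1.06 ± 0.17. Of 6 tested ADAMTS substrates 5 rose, among them the procollagens Col1a1 (4.31 ± 0.59) and Col3a1 (4.08 ± 0.53), and the Adamts4 substrate versican (Vcan, 1.63 ± 0.31). The adjusted p from edgeR was at most 0.000419 for those 3 genes. Cartilage oligomeric matrix protein, cut by Adamts12 and Adamts7, was not in this list, and its gene Comp fell in IR (-1.03 in log2 units).

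Of the tolloid proteases, which trim the carboxy end of procollagens, and their enhancers, 3 of 5 rose and 1 fell. Bmp1 rose by 1.41 ± 0.21 and its enhancer Pcolce by 1.04 ± 0.13, while Tll2 fell by 2.14 on the log2 scale (edgeR adjusted p = 3.82e-05, 7.11e-06 and 0.000196). The ADAMTS-like proteins and papilin, which resemble ADAMTS enzymes but lack the protease domain, split into 2 that rose and 2 that fell of 7. Papln fell by 1.09 and Adamtsl3 rose by 0.61 ± 0.11. Of 8 tested activators, inhibitors and clearance receptors 2 rose and 2 fell, with Lrp1, which takes up proteases and their complexes, at 0.94 ± 0.12 and Bsg, an inducer of MMP expression, at -0.53 ± 0.12 (edgeR adjusted p = 7.56e-06 and 0.001).

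Decursin-treated hearts were next set against SHAM. In IR+Decursin against SHAM 15 of 37 genes rose, where 17.5% of all genes rose, and 0 fell, where 11.8% of all genes fell. The median log2 fold change was 0.55. Mmp9, Mmp12, Mmp27, Adamts4 and Adamts14 are among the 15 and did not reach the count threshold of the test in all 6 SHAM libraries. They entered the test mainly through the injured hearts, so these counts cannot be read as a share of all 44 genes. For 8 genes every IR+Decursin library lay above every SHAM library at TMM-scaled levels, for 4.44% of all genes. By library totals, Mmp14, Adamts2 and Adamts14 in IR+Decursin 6 (TMM factor 0.831) were not above every SHAM library. Mmp14, for example, had 432 of 30.95 M counts there and 507 of 33.4 M in SHAM 5. Without the 3 libraries that went against their labels 38 members were tested and 16 rose, among them a member not tested in the main fit. For that setting the share of all genes is not given, and the 17.5% above belongs to the main fit. This comparison shares its SHAM libraries with IR against SHAM, so the 14 genes called in both are not independent evidence.

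Timp1 lay 4.19 ± 0.55 log2 units above SHAM in treated hearts (18.2-fold, edgeR adjusted p = 0.000253) and Mmp14 2.65 ± 0.37 (6.29-fold, adjusted p = 0.000309). Adamts2 was 1.59 ± 0.24 higher, Mmp23 1.19 ± 0.19 and Mmp2 0.81 ± 0.12 (edgeR adjusted p = 0.000357, 0.000437 and 0.000223). Timp2, at 0.55 ± 0.07, had both the smallest rise and the smallest adjusted p of the 15 genes, 0.000139 from edgeR.

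Mmp12 was 3.62 ± 0.86 higher than in SHAM (edgeR adjusted p = 0.00559), and 2.92 without IR+Decursin 1. It was not called by limma-voom with quality weights (2.97, adjusted p = 0.0909) or by limma-trend on log2(FPKM + 1) (1.12 on that scale, adjusted p = 0.0626). Adamts4 was 3.62 ± 0.79 higher (edgeR adjusted p = 0.00332), and 4.35 without SHAM 5, and Mmp9 3.39 ± 0.94 higher (adjusted p = 0.0144), and 3.98 without SHAM 5. Mmp9 likewise was not called by limma-voom (3.54, adjusted p = 0.128) or limma-trend (1.52 on the log2(FPKM + 1) scale, adjusted p = 0.0588). Mmp3 at 1.83 ± 0.58 (edgeR adjusted p = 0.0265) and Mmp27 at 1.65 ± 0.53 (adjusted p = 0.0241) were also higher, and both calls depended on single libraries. Mmp3 was not called without any 1 of SHAM 1, SHAM 3, SHAM 4, SHAM 6, IR+Decursin 1 or IR+Decursin 4 (adjusted p = 0.0521 to 0.0631). Mmp27 was not called without SHAM 6 (1.46, adjusted p = 0.0529) or without IR+Decursin 1 (1.19, adjusted p = 0.0934).

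Mmp19, Adamts12 and Adamts14 were also higher, by 2.12 ± 0.38, 2.55 ± 0.51 and 1.80 ± 0.30 (edgeR adjusted p = 0.000958, 0.00196 and 0.000475). Mmp17 (MT4-MMP) was the 1 gene called here and not in IR against SHAM, at 0.61 ± 0.21 (edgeR adjusted p = 0.0306). It was not called when any 1 of SHAM 1, SHAM 2, SHAM 3, IR+Decursin 1 or IR+Decursin 5 was left out (adjusted p = 0.058 to 0.0819). Its change in IR against SHAM was 0.34 ± 0.21, and IR+Decursin against IR gave 0.27 ± 0.20 (adjusted p = 0.495), so the gene was not shown to differ between the injured groups. The 3 genes that fell in IR had changes against SHAM of 0.14 ± 0.13 (Timp3), -0.07 ± 0.35 (Timp4) and -0.10 ± 0.17 (Mmp15), with edgeR adjusted p of 0.451, 0.9 and 0.693. Mmp8, Mmp11 and Mmp25, which rose in IR, had 1.0 ± 0.92, 0.15 ± 0.12 and 1.03 ± 0.43 (edgeR adjusted p = 0.449, 0.398 and 0.0772).

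The direct test of decursin, IR+Decursin against IR, called 0 of the 37 genes with edgeR and 0 of all 15088 genes (0%). At an unadjusted p under 0.05 there were 5 members, Timp1, Timp3, Timp4, Mmp11 and Mmp15, where 18% of all genes were that low. DESeq2 called 1 member, Timp3 (0.55, adjusted p = 0.00613), where it called 2.48% of all genes higher. The median log2 fold change was -0.12 over the members and -0.02 over all genes.

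Timp3 was the member with the smallest adjusted p. Its log2 difference between IR+Decursin and IR was 0.56 ± 0.13, 1.47-fold higher with decursin (edgeR adjusted p = 0.0883). In the per-library levels given above, 5 of 6 IR+Decursin libraries lay above every IR library, and IR+Decursin 1 lay among them. Without IR+Decursin 1 the difference was 0.64 and it was called (edgeR adjusted p = 0.00981), and without any 1 of the other libraries the adjusted p was 0.0563 to 0.24.

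Timp4, which fell in IR with Timp3, was 1.05 ± 0.36 log2 units higher with decursin (edgeR adjusted p = 0.163). Here 3 of 6 treated hearts, IR+Decursin 3, 5 and 6, lay above all IR hearts, and the other 3 lay among them. Mmp15 was 0.45 ± 0.17 higher (edgeR adjusted p = 0.199), with IR+Decursin 2, 5 and 6 above all IR hearts. The 3 genes that fell in IR had a higher median in IR+Decursin than in IR, but they were chosen by their low IR values, so this is a description and no test.

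Timp1 was 1.01 ± 0.47 log2 units lower with decursin than in IR (0.496-fold, edgeR adjusted p = 0.267). In 5 of 6 treated hearts it lay below every IR heart, and IR+Decursin 1, at 121 RPKM, lay among them. Mmp11 was 0.27 ± 0.12 lower (edgeR adjusted p = 0.253). Adamts4 lay below every IR heart in 5 of 6 treated hearts as well, with a difference of -1.11 ± 0.63 (edgeR adjusted p = 0.361), and Mmp8 likewise with -1.59 ± 0.87 (adjusted p = 0.34). Mmp9, Mmp12, Mmp3 and Mmp14 had differences of -1.54 ± 0.80, -1.19 ± 0.69, -1.06 ± 0.55 and -0.60 ± 0.34, with edgeR adjusted p of 0.317, 0.368, 0.319 and 0.364.

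Of the neutrophil, macrophage and cardiomyocyte markers edgeR called 0 in the same comparison, with 1, 5 and 5 at an unadjusted p under 0.05. All 7 neutrophil markers tested had a log2 difference below 0 (median -1.08), as had 9 of 10 macrophage markers (median -0.45), and all 9 cardiomyocyte markers had one above 0 (median 0.29). Their part in the differences of the inhibitors and MMPs between IR+Decursin and IR was not tested.

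Other members had a difference near 0 in this comparison. Timp2 differed by 0.02 ± 0.07, Mmp2 by -0.02 ± 0.12, Adamts5 by -0.03 ± 0.15 and Adamts1 by 0.06 ± 0.14 (edgeR adjusted p = 0.872, 0.948, 0.921 and 0.854). The procollagen N-proteinases that rose in IR, Adamts14 and Adamts2, had -0.09 ± 0.28 and -0.19 ± 0.23 (edgeR adjusted p = 0.896 and 0.682), with wider errors.

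Direction was more uniform than size. Of the 17 genes that rose in IR, 16 had a log2 difference below 0 in IR+Decursin against IR, and 13 had a lower median RPKM in IR+Decursin than in IR. All 17 had a higher median in IR+Decursin than in SHAM. The IR libraries enter both the choice of these 17 genes and the difference, so these counts describe the genes and test nothing. In none of the 6 lists of related genes was a gene called in IR+Decursin against IR, where Ctss had a difference of -1.04 ± 0.38 (edgeR adjusted p = 0.188) and Tll2 of 1.38 ± 0.40 (adjusted p = 0.121).

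For most of the genes that rose in IR, the treated hearts differed more among themselves than the IR hearts did. The SD of log2 levels was larger in IR+Decursin than in IR for 15 of the 17 risen genes and for 26 of the 37 tested. Single animals accounted for much of the range. IR+Decursin 6 was the lowest of its group for 15 of the 17 genes, below every IR library for 16 and within the SHAM range for 9. IR+Decursin 5 was below every IR library for 14 and within the SHAM range for 6. At the other end IR+Decursin 1 was the highest of its group for 12 genes and above the IR median for 13. The 17 genes were called from these same IR libraries, in a test in which even IR values help a call. The counts of spread and order therefore describe the genes and test nothing, and their share over all genes is not given here.

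IR+Decursin 6 is also the library with 7.54% of its counts on Gm26917, and it had the lowest macrophage, neutrophil and activated fibroblast marker levels of its group (5.47, 0.34 and 4.28, where the highest SHAM levels were 5.43, 1.54 and 4.62). The part of these cell types, or of the Gm26917 counts, in this spread was not tested. Without IR+Decursin 6 alone, edgeR still called 0 members in IR+Decursin against IR.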

How the data were processed

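Heart RNA of 18 mice (3 groups of 6) was analysed. The deposited table holds raw read counts by gene symbol, made by the authors. Per the submitters' processing notes, reads passed through fastp, HISAT2 (build GRCm39) and HTSeq; the annotation, strand setting and handling of multiply mapped reads were not given in the sources used here. Deposited FPKM equal counts scaled by 1 length per gene and the library total (largest relative deviation 1.58e-09), and that length was used for RPKM.

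Counts of all 18 libraries entered 1 edgeR 4.0.16 quasi-likelihood fit (R 4.3.3, TMM factors, filterByExpr, robust, 15 residual degrees of freedom), with two-sided tests and Benjamini-Hochberg adjustment over 15088 genes at 0.05. SE is the log2 fold change over the root of F. The alternatives used DESeq2 1.42.0, limma 3.58.1 on log2(FPKM + 1), other scalings and filters, and left-out libraries. The script was tested on simulated data. Members and gene lists were chosen with earlier results of these data known. Every tested member was named. Per-library levels are given for the 15 genes with the smallest adjusted p in IR against SHAM, the 4 Timp genes and genes opposed to their role group, and for Mmp8 besides. Motifs came from RefSeq windows.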

Additional observations from a re-analysis of the deposited data

Results flagged for a closer look

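Among 21 genes checked in 3 groups of 6 libraries (63 groups of values), 2 groups held a library far from the others by Dixon's criterion (the gap to the nearest library over the group's range), and chance flags about 1 in 20 groups. Both concern Mmp8, the neutrophil collagenase. SHAM 5 had 1.25 RPKM of Mmp8, where the other SHAM libraries had 0.0141 to 0.402. IR+Decursin 1 had 1.88 RPKM, where the other IR+Decursin libraries had 0.0634 to 0.646. SHAM 5 also had the highest neutrophil marker level of its group (1.54), and IR+Decursin 1 the highest level of 12 of the 17 risen genes. The part of neutrophil content in these values was not tested.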

How the results depend on the processing

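Results were recomputed under 31 other settings, 18 of which left out 1 library. In IR against SHAM 26 members rose with library totals, and 1 fell with library totals, in the 3 limma-trend fits on FPKM and without the libraries with over 1000 Xist counts. Of all 15088 genes, 7012 rose and 1056 fell with library totals, and 6901 rose and 1089 fell with limma-trend on log2(FPKM + 1). In IR+Decursin against IR, DESeq2 called 1 member, higher, and the fits that left out 1 library called 0 to 1. Replicate numbers did not pair the samples: 3 of 18 same-numbered pairs correlated over 0.1 (range -0.403 to 0.311), and 3 of 18 correlated best with their own number. With the replicate block 16 rose and 3 fell in IR against SHAM, 14 rose in IR+Decursin against SHAM and 0 were called in IR+Decursin against IR. Of all 15088 genes, 3591 rose and 3124 fell with that block in IR against SHAM, and 2385 rose and 1488 fell in IR+Decursin against SHAM. Leaving out 1 library gave 17 to 19 rises and 3 falls in IR against SHAM, with 37 or 38 members tested. It gave 12 to 17 rises in IR+Decursin against SHAM. The shares of all genes in the fits that left out libraries are not given here.

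Of 2714 single-gene values under another setting, 2614 kept their side of the threshold, 47 lost and 53 gained a call, and 0 called values reversed. Of those 2614, 130 changed sign, all of them uncalled in both fits. The cause was not tested. The lowest SHAM library had 1 count of Mmp8 and 5 of Mmp12, so the size of a fold against SHAM is imprecise for such genes.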
